A study of Mus musculus with 2 samples.

Results

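The 9 genes described here, Cx3cr1, P2ry12, Tmem119, Csf1r, Aif1, Trem2, Spi1, Sall1 and C1qc, are commonly used to identify microglia, the resident macrophages of the brain. They were taken by name, as known microglial markers, with earlier results of these data known. They are 9 of 21755 protein-coding genes on chromosomes 1 to 19 and X of the mouse genome (mm10, GRCm38). For each gene, the peaks of DNase I cutting that overlapped the gene body or the 10000 bp on either side of it were collected, with the footprints inside them. All 9 genes were found in the annotation, GENCODE M21.

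The tissue was the left cerebral cortex. The animals were B6CASTF1/J males, first-generation hybrids of C57BL/6J and CAST/EiJ, at the age of 36 days. There was 1 group, with no treatment and no control tissue. The 2 libraries are labelled as biological replicates 1 and 2, come from males that the labels number separately although they share 1 donor record, and are called mouse 1 and mouse 2 here. DNase-seq maps open chromatin: the enzyme cuts DNA that is not wrapped in nucleosomes, and a peak is a stretch where cuts pile up. With 1 group of 2 mice there is nothing to test between conditions, so every value below is a description, and an SD over 2 mice measures only the spread between them.

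Microglia enter the brain early in development from the yolk sac and maintain themselves there. Their survival depends on signalling through the receptor encoded by Csf1r, and their identity on transcription factors such as PU.1, the product of Spi1, and SALL1. They sense neurons and injury through surface receptors such as CX3CR1 and P2RY12, and clear debris and synapses with the help of TREM2 and complement. In adult cortex they are a minority beside neurons, astrocytes and oligodendrocytes. A bulk library sums over all these cells, so fewer microglia and less open chromatin per microglial cell cannot be told apart in any value given here.

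Each mouse has a shorter and a longer deposited peak list, with 72021 and 125119 peaks in mouse 1 and 59150 and 103840 in mouse 2. A peak's height is the authors' signal value. In both libraries heights were whole multiples of 1 step, which gave an inferred depth of 160.1 M cuts for mouse 1 and 145.4 M cuts for mouse 2. The median height was 1.18 in mouse 1 and 0.963 in mouse 2. Over all sites shared by both mice the median log2 ratio of mouse 2 to mouse 1 was −0.46, with quartiles of −0.86 and −0.09, so lower heights in mouse 2 were the rule across the genome. Intervals given with a height are 95% Poisson intervals of the cuts it stands for and cover counting error only. They are not adjusted for this general difference, so intervals that lie apart do not by themselves mark a difference at that gene.

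In the shorter lists 4 of 9 genes had a promoter peak in mouse 1, defined as a peak within 1000 bp of any annotated start site, namely Aif1, Trem2, Sall1 and C1qc. In mouse 2 there were 2 of 9, Aif1 and Sall1. Over all protein-coding genes the share with a promoter peak was 63.5% in mouse 1 and 58.4% in mouse 2, so the genes' shares of 44.4% and 22.2% were below the background in both mice. With genes without a peak counted at 0, the median promoter height of the 9 genes was 0 in both mice, beside 2.05 and 1.04 over all coding genes. In the longer lists 8 of 9 had a promoter peak in mouse 1, all but P2ry12, which is above the 67.8% of coding genes. In mouse 2 there were 5 of 9, Cx3cr1, Aif1, Spi1, Sall1 and C1qc, below the 64.0% of coding genes.

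**Figure D1:**
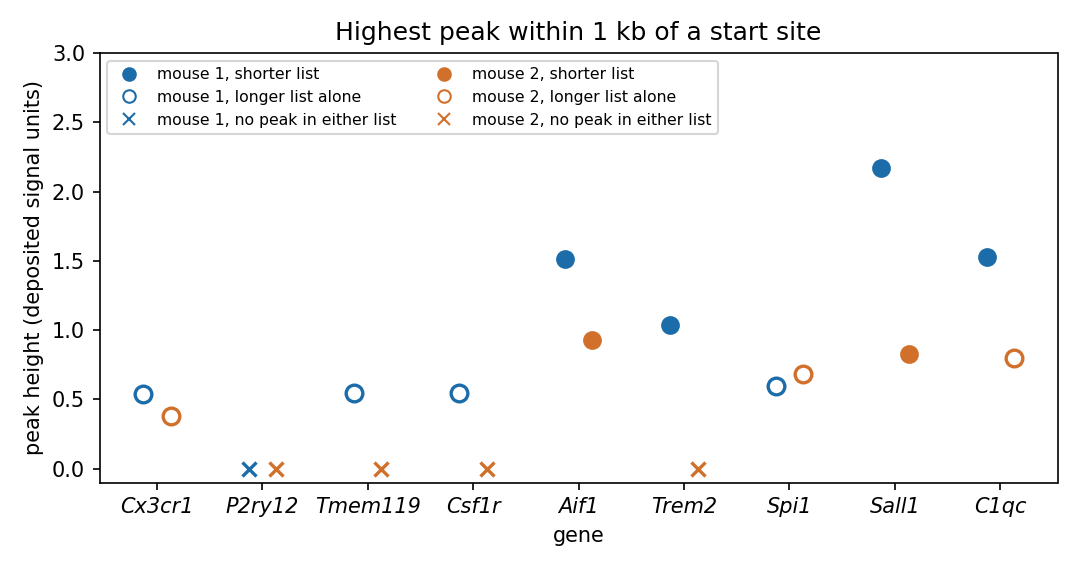
Height (deposited signal units) of the highest peak within 1 kb of a start site of each gene, for mouse 1 (blue) and mouse 2 (orange). Filled circles are peaks of the shorter list, and open circles mark genes with a peak within 1 kb in the longer list alone. Crosses at 0 mean no peak within 1 kb in either list. The C1qc peak of mouse 2 is in both its lists, but comes within 1 kb in the longer list alone. Only Aif1 and Sall1 have filled circles for both mice, and P2ry12 has a cross for both.

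Every gene had at least 1 peak in its window, promoter peaks included. In the window of the gene body and 10000 bp on each side, 9 of 9 genes had a peak in both mice, beside 78.4% of coding genes in mouse 1 and 76.7% in mouse 2. The windows held 32 peaks in mouse 1 and 26 in mouse 2, with a median of 2 per gene in both, which is also the median over all coding genes. Merged where they overlapped, these peaks formed 39 sites. Of these, 19 were found in both mice (48.7%), 13 in the list of mouse 1 alone and 7 in that of mouse 2 alone, beside 52.5% of all sites in the genome found in both. Within 1 kb of the start site of some other gene lay 9 of the 39 sites, and 15 of the other 30 were in both mice.

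Csf1r encodes the receptor for the cytokines made from Csf1 and Il34, without which microglia die, on chromosome 18 (chr18:61100598-61132149, plus strand). Its window held 1 site of the shorter lists, and that site was in both mice. It lay at chr18:61108521-61108800, in intron 2 of the full-length transcript, 3088 bp downstream of the RefSeq start, the part of the gene where an intronic macrophage enhancer is known. Its height was 1.10 in mouse 1 (176 cuts, interval 0.943 to 1.27) and 0.764 in mouse 2 (111 cuts, 0.628 to 0.920). Mouse 1 was higher, with intervals that did not overlap (mean 0.931 ± 0.237, SD, n = 2). The log2 ratio of mouse 2 to mouse 1 was −0.53, near the median of −0.46 over all shared sites. The site held 4 footprints in mouse 1 and 3 in mouse 2. At the start site, a peak of 0.543 was in the longer list of mouse 1 alone, with a lowest false discovery rate of 0.0032. In mouse 2 no base of the promoter was listed.

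**Figure D2:**
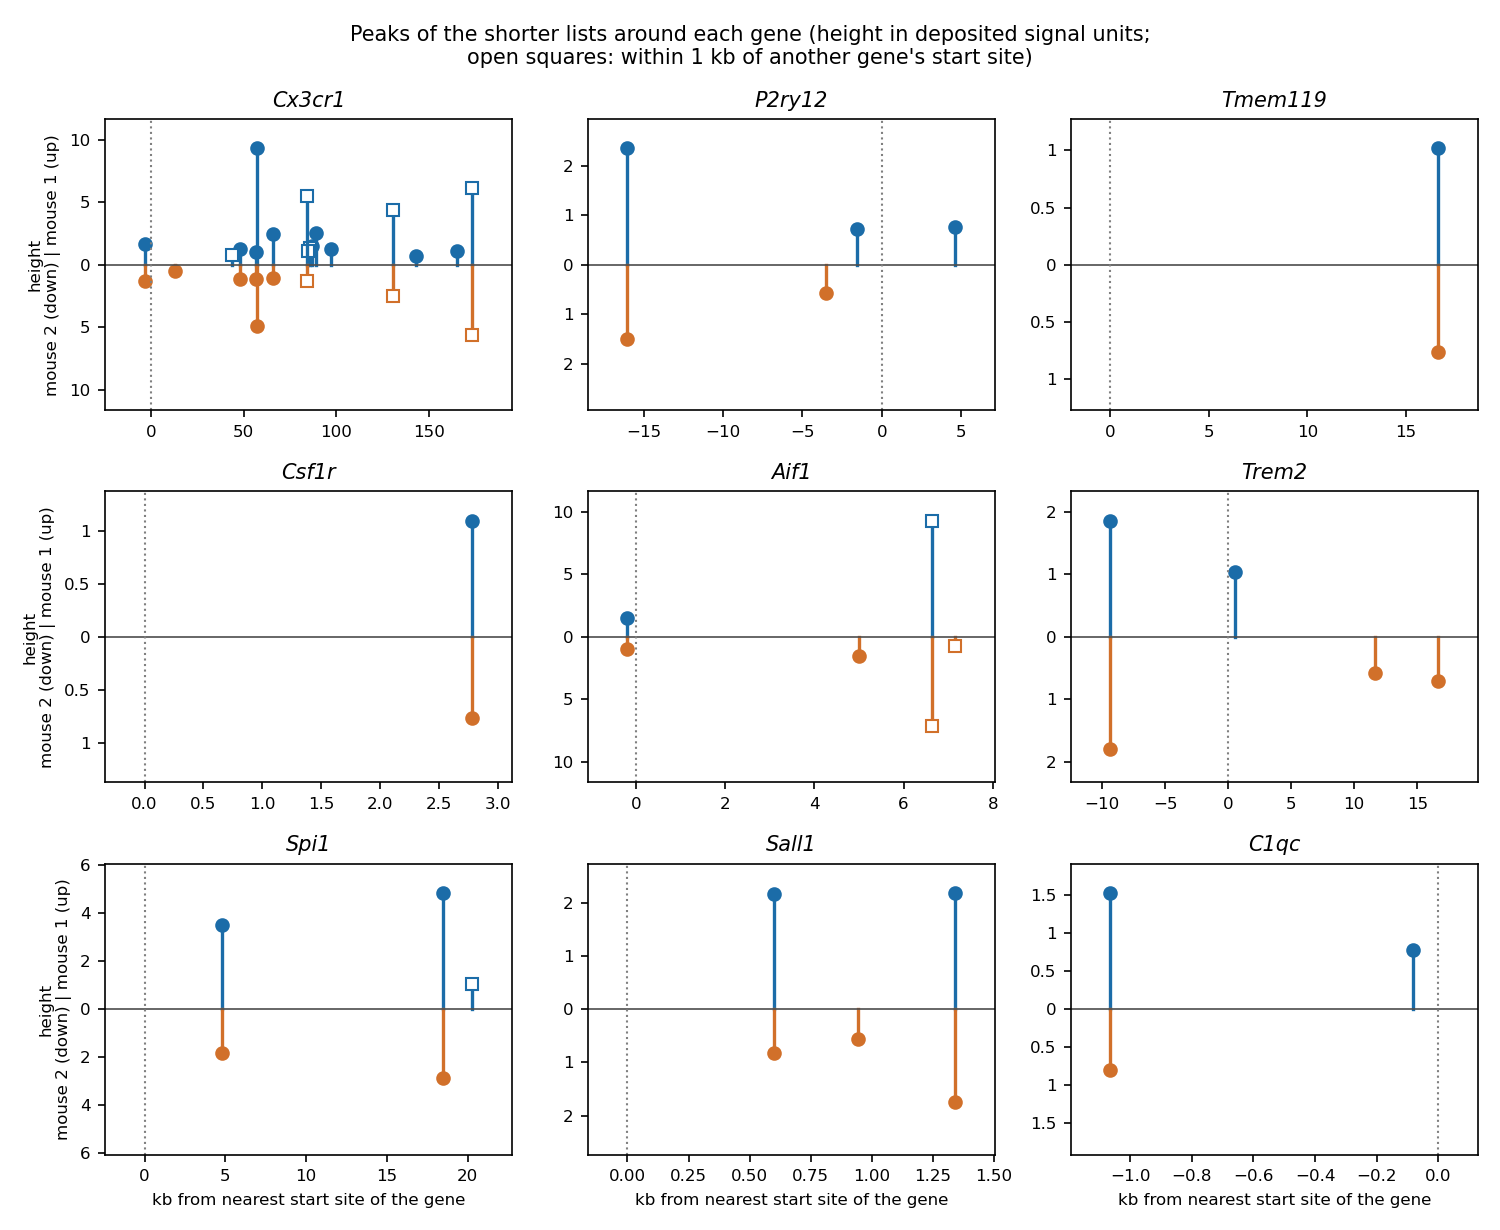
Peaks of the shorter lists around each gene, by distance in kb from its nearest annotated start site (horizontal axis, negative upstream) and height in deposited signal units (vertical axis, mouse 1 upward in blue, mouse 2 downward in orange); open squares lie within 1 kb of another gene's start site. Csf1r and Tmem119 have 1 site each, found in both mice, while the window of Cx3cr1 holds 17 sites, most of them far inside a long annotated gene body.

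Cx3cr1 encodes the receptor for the neuronal chemokine fractalkine and lies on the minus strand of chromosome 9. In GENCODE its body spans chr9:119901616-120069879, 168264 bp, because of 1 long transcript that runs across Wdr48, Gorasp1, Ttc21a, Csrnp1 and Xirp1. RefSeq ends the gene at chr9:120048683-120068296. The 16 peaks of mouse 1 and 9 of mouse 2 in the GENCODE window fell to 1 and 2 with the RefSeq body, a choice made after the values were seen. At the start site itself neither shorter list had a peak. The longer lists had one at chr9:120068262-120068460, with a height of 0.537 in mouse 1 and 0.378 in mouse 2. The lowest false discovery rate of the cut rate within 1 kb of a start was 0.00266 in mouse 1 and 0.00442 in mouse 2, and the start of the non-coding gene Gm33858 lies within 1 kb of that peak.

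The site nearest Cx3cr1 in the shorter lists of both mice was upstream, at chr9:120073241-120073420, its middle 3451 bp before the nearest GENCODE start and 5034 bp before the RefSeq start, and outside any annotated gene. Its height was 1.62 in mouse 1 (interval 1.43 to 1.83) and 1.28 in mouse 2 (1.10 to 1.48), a mean of 1.45 ± 0.244 (SD, n = 2). Mouse 1 was the higher, and the intervals overlapped. A second site in the first intron of the short transcript, chr9:120055081-120055216, was in the shorter list of mouse 2 alone, at 0.516, and the longer list of mouse 1 had 0.462 there. The sequence of the upstream site follows, from GRCm38, plus strand. In this and the sequences below, capitals mark bases inside a footprint of at least 1 mouse, a run protected from cutting within a peak, such as a bound protein leaves. The genome sequence is that of C57BL/6J, so the CAST/EiJ copy that each hybrid also carries is not shown.
Cx3cr1 upstream site: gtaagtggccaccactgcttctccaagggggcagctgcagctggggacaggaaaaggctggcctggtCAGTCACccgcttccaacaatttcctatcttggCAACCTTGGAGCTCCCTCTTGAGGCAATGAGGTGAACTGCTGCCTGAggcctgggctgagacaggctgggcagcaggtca

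The remaining 15 sites in the GENCODE window of Cx3cr1 lay far from that start, among the neighbouring genes. The highest, chr9:120011121-120011380, overlapped an exon of the non-coding gene Gm49427 and had a height of 9.29 in mouse 1 and 4.86 in mouse 2 (mean 7.08 ± 3.14, SD, n = 2). It was the highest of the 30 sites away from other genes' starts. Its 260 bp held 36 CpG dinucleotides at 72.3% G and C. Of these 15 sites 6 were within 1 kb of starts of other genes. The start of Gm2449, where it overlaps Wdr48, had 6.16 and 5.60, that of Ttc21a 4.37 and 2.46, and that of Csrnp1 5.50 and 1.31. The Csrnp1 site had the lowest ratio of mouse 2 to mouse 1 of all 19 shared sites, −2.07 on the log2 scale. Its intervals, 5.14 to 5.87 and 1.13 to 1.51, lay far apart. The sequence of the Gm49427 site is given because it is the highest of the 30, with that of a lower site in an intron of Xirp1, chr9:120020368-120020523 (1.29 and 1.16), because it alone held an exact CTCF core.
Gm49427 site: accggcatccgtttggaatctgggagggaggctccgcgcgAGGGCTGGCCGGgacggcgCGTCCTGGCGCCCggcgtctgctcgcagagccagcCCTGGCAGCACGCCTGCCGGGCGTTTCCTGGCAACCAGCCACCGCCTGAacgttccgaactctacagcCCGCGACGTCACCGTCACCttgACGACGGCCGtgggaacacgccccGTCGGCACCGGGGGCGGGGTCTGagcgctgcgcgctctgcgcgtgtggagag
Xirp1 intron site: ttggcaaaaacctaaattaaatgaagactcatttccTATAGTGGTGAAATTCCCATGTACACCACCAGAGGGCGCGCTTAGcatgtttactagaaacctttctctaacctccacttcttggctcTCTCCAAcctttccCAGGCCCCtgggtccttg

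P2ry12 encodes the purinergic receptor by which microglial processes sense ATP and ADP, and lies within Med12l on chromosome 3 (chr3:59216272-59262871). It was the only one of the 9 genes with no promoter peak in either list of either mouse, and no base within 1 kb of its starts was listed at a false discovery rate up to 0.05. Its body held 4 sites, all in the first intron of its full-length transcripts. The one in both mice, chr3:59243501-59243700, had a height of 2.35 in mouse 1 (interval 2.12 to 2.60) and 1.50 in mouse 2 (1.31 to 1.71). Mouse 1 was higher, and the intervals did not overlap (mean 1.93 ± 0.605, SD, n = 2). The log2 ratio of mouse 2 to mouse 1, −0.65, lay within the quartiles over all shared sites. This site lay 19385 bp downstream of the RefSeq start and also in an intron of Med12l, so position does not assign it to either gene. Of the other sites, 0.731 and 0.768 were in the shorter list of mouse 1 alone and 0.564 in that of mouse 2 alone. In the longer lists the 0.768 site also had a peak of 0.371 in mouse 2, and the 0.564 site one of 0.462 in mouse 1. No peak of mouse 2 overlapped the 0.731 site in the longer list, where a peak of 0.571 lay directly beside it. The shared site held 50 footprint bases.
P2ry12 intron site: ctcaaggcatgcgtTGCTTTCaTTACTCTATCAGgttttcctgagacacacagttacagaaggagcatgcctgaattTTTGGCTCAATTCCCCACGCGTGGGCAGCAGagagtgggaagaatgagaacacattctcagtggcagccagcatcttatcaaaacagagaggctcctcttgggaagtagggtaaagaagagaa

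Trem2 encodes a lipid-sensing receptor that signals through the adaptor TYROBP, on chromosome 17 (chr17:48346401-48354147, plus strand). Its shared site lay upstream, at chr17:48336961-48337160, 9341 bp before the start and outside any gene. The height was 1.86 in mouse 1 and 1.80 in mouse 2, a mean of 1.83 ± 0.0465 (SD, n = 2). This was the closest match between the mice among the 19 shared sites, with a log2 ratio of −0.05. The promoter peak, by contrast, was in the lists of mouse 1 alone. It lay in intron 1 at chr17:48346975-48347080, with a height of 1.04, and the lowest false discovery rate within 1 kb of the start was 0.000116. In mouse 2 no base there was listed up to 0.05. By the start itself the longer list of mouse 1 also had a peak of 0.712, at chr17:48346411-48346800. On the Treml1 side of the gene, sites of 0.578 and 0.702 were in the shorter list of mouse 2 alone, and the longer list of mouse 1 had a peak of 0.706 at the second. Both the shared and the mouse 1 site are printed, since they show opposite patterns between the mice.
Trem2 upstream site: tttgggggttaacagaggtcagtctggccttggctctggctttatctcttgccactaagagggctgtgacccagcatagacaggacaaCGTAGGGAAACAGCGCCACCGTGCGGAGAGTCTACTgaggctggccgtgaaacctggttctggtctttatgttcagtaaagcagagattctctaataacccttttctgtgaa
Trem2 intron site: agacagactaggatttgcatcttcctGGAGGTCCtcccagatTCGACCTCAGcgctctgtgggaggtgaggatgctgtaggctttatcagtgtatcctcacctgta

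Tmem119, whose product is a membrane protein found on microglia but little on other brain macrophages, lies at chr5:113793729-113800516 on the minus strand. Its window held 1 site, in both mice, at chr5:113783721-113783900, beyond the 3′ end and outside any gene. Its middle was 16636 bp from the start of Tmem119 and 9963 bp from that of Iscu, the nearest start. The height was 1.02 in mouse 1 (interval 0.868 to 1.19) and 0.764 in mouse 2 (0.628 to 0.920). Mouse 1 was higher, with overlapping intervals (mean 0.891 ± 0.180, SD, n = 2). Its promoter had a peak of 0.543 in the longer list of mouse 1 alone, with a lowest false discovery rate of 0.0212, and no base listed in mouse 2.
Tmem119 downstream site: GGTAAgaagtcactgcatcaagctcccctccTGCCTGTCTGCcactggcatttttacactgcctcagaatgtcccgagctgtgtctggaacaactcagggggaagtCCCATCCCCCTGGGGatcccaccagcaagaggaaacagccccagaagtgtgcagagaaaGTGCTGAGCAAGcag

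Aif1 encodes IBA1, the calcium-binding protein whose antibody is the usual stain for microglia, at chr17:35170991-35176068 on the minus strand. Its promoter peak, chr17:35172901-35173110, was in both mice, at 1.51 in mouse 1 (interval 1.33 to 1.71) and 0.929 in mouse 2 (0.779 to 1.10). Mouse 1 was higher, and the intervals did not overlap (mean 1.22 ± 0.412, SD, n = 2). The log2 ratio of mouse 2 to mouse 1, −0.70, lay within the quartiles over all shared sites. Among all coding genes with a promoter peak, these heights stood at percentile 14.5 in mouse 1 and 11.5 in mouse 2. The peak lay 186 bp before an internal GENCODE start, but 3047 bp downstream of the RefSeq start, in an intron of the coding transcripts that start before it. At the neighbouring start of Gm17705, the site reached 9.32 and 7.13. A start of Prrc2a also lies within 1 kb of it. A small site of 0.709, its middle 132 bp from that start, was in the shorter list of mouse 2 alone. A further site in an exon of Gm17705, chr17:35166761-35166960, was at 1.51 in mouse 2 and absent from the lists of mouse 1. It was the highest of the 7 sites in mouse 2 alone, and its footprint covered a CTCF core with 1 mismatch.
Gm17705 exon site: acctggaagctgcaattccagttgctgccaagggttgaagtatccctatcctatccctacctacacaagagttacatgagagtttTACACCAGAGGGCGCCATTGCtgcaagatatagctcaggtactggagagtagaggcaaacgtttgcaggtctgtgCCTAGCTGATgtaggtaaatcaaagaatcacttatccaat

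C1qc encodes a chain of complement C1q, which microglia supply to the brain, and lies beside C1qa and C1qb on chromosome 4 (chr4:136889804-136893065, minus strand). A peak at the start site, chr4:136892881-136893035, was in the shorter list of mouse 1 alone, at 0.774. The shared site lay upstream, at chr4:136894041-136894220, its middle 1065 bp before the GENCODE start. Its height was 1.53 in mouse 1 (interval 1.34 to 1.73) and 0.798 in mouse 2 (0.659 to 0.957). The mice did not overlap (mean 1.16 ± 0.518, SD, n = 2). The nearer edge of this peak was 976 bp from the start in mouse 1 and 1014 bp in mouse 2. The same site therefore counted as a promoter peak in mouse 1 and not in mouse 2. Starts of C1qb and C1qa, the genes of the other chains, had peaks in the longer list of mouse 1 alone, at 0.575 and 0.606.
C1qc upstream site: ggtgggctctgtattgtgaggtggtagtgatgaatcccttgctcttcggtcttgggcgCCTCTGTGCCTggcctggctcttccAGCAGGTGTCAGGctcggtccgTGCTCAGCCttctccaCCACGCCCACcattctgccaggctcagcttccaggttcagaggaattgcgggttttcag

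Spi1 encodes PU.1, the ETS-family factor required for all macrophages, on chromosome 2 (chr2:91082390-91115756, plus strand). It had the highest sites of any of the 9 genes outside the Cx3cr1 window and away from other genes' starts. The site in intron 2, chr2:91101501-91101680, stood at 3.50 in mouse 1 (interval 3.22 to 3.81) and 1.85 in mouse 2 (1.64 to 2.09). The site in coding sequence of the last exon, chr2:91115161-91115360, stood at 4.86 (4.52 to 5.21) and 2.90 (2.63 to 3.19). Both were higher in mouse 1 by more than the counting intervals, with means of 2.68 ± 1.17 and 3.88 ± 1.39 (SD, n = 2). The exonic site falls in codons of the DNA-binding ETS domain and held 15 CpG dinucleotides. In both sites a footprint covered a CTCF core with 1 mismatch. Within 1 kb of a start there were peaks in the longer lists alone, near different starts. Mouse 1 had 0.600 at chr2:91096677-91096760, which holds a RefSeq start at chr2:91096700. Mouse 2 had 0.681 at chr2:91083025-91083114, in an intron, its nearer edge 617 bp from the nearest GENCODE start. The lowest false discovery rates were 0.00928 and 0.0164.
Spi1 intron 2 site: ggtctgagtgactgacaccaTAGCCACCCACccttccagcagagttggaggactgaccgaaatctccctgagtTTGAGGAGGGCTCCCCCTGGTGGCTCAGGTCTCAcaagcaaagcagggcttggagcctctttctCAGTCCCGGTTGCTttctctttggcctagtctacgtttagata
Spi1 exon 5 site: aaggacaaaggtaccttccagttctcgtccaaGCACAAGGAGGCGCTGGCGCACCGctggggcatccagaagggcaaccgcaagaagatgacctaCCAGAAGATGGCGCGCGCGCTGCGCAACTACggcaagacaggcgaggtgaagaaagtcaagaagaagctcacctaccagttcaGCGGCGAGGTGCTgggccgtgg

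Sall1 encodes a zinc finger factor that helps to keep microglia in their surveying state, and is also used in kidney and limb development. It lies at chr8:89027235-89044162 on the minus strand and had the highest mean promoter height of the 9. The site chr8:89043401-89043724, which holds a RefSeq start, stood at 2.17 in mouse 1 (interval 1.95 to 2.41) and 0.826 in mouse 2 (0.684 to 0.987). The gap between the mice was wide (mean 1.50 ± 0.949, SD, n = 2). These heights were at percentile 22.6 and 8.68 of coding genes with a promoter peak. A second site, chr8:89042621-89043020, holds another RefSeq start, at 1342 bp from the GENCODE start, and stood at 2.19 and 1.75 (mean 1.97 ± 0.305, SD, n = 2). Here the interval of mouse 1, 1.96 to 2.43, and that of mouse 2, 1.55 to 1.98, overlapped slightly. A small site between them, 0.564, was in the shorter list of mouse 2 alone and in neither longer list. By the GENCODE start itself the longer lists had a site at chr8:89044025-89044292, with 0.837 in mouse 1 and 0.337 in mouse 2.

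Across the 39 sites, heights ran from 0.731 to 9.32 in mouse 1 and from 0.516 to 7.13 in mouse 2, with medians of 1.51 over 32 peaks and 1.15 over 26. Of the 19 shared sites 18 were lower in mouse 2, with a median log2 ratio of −0.65, and 6 of the 19 were below the lower quartile of all shared sites, among them the Csrnp1 site (−2.07), the Sall1 promoter site (−1.39) and the C1qc upstream site (−0.94). Over all shared sites in the genome 79.5% were lower in mouse 2. The exception was a site in the Cx3cr1 window, chr9:120011569-120011827, at 0.999 in mouse 1 and 1.15 in mouse 2, and its intervals overlapped. At the 15 shared sites away from other genes' starts, 14 were lower in mouse 2, with the same median ratio of −0.65.

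**Figure D3:**
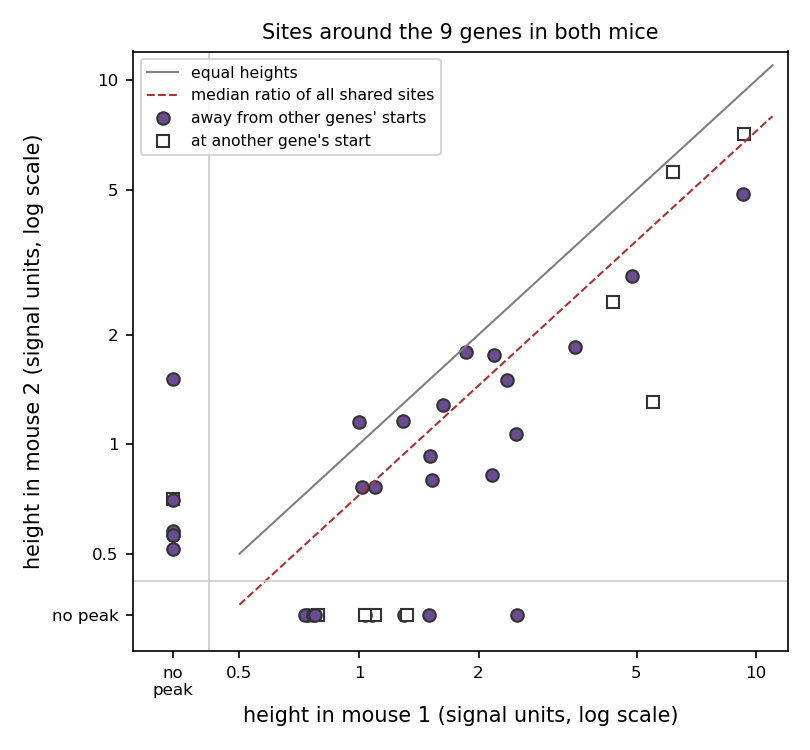
Height of each of the 39 sites in mouse 1 (horizontal) and mouse 2 (vertical), both in deposited signal units on log scales, with sites listed in 1 mouse alone placed at "no peak"; filled circles lie away from other genes' starts and open squares within 1 kb of one. Of the 19 shared sites 18 lie below the grey line of equal heights, and the dashed line marks the median ratio of all shared sites, −0.46 on the log2 scale.

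The longer lists added further sites but did not hold every peak of the shorter ones. The peaks of 0.564 in the Sall1 window and 0.709 in the Aif1 window, both of mouse 2, were absent from them. Of the 20 sites found in the shorter list of 1 mouse alone, 6 overlapped a peak of the other mouse's longer list. The windows held 80 sites in these lists, of which 37 were in both mice, beside 48.2% of all sites of the longer lists. Of the 80, 43 overlapped no peak of either shorter list, and 11 of these 43 were repeated in both mice, 22 were in mouse 1 alone and 10 in mouse 2 alone. For the 11 of 43 and the 6 of 20, the share over all such sites in the genome was not computed. The highest repeated one lay between Gm17705 and Aif1, at chr17:35167921-35168154, with 1.11 in mouse 1 and 0.695 in mouse 2. Another, in an upstream intron of Spi1 at chr2:91090943-91091110, had 0.843 and 0.729. P2ry12 had one repeated at chr3:59260841-59260985, 1918 bp inside its body, with 0.387 and 0.323. The deposited false discovery rate list was made from the same alignments as the peak lists, so it is not independent of them. Bases within 1 kb of a start were listed at 0.05 or less for 8 of 9 genes in mouse 1 and 5 of 9 in mouse 2. Of all coding genes 68.8% and 65.1% were listed. They were all but P2ry12 in mouse 1, and Cx3cr1, Aif1, Spi1, Sall1 and C1qc in mouse 2.

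Of the peaks in the windows 26 of 32 in mouse 1 and 21 of 26 in mouse 2 held at least 1 footprint, 81.2% and 80.8%. Over all peaks the shares were 83.1% and 88.1%. The windows' peaks held 82 footprints in mouse 1 and 60 in mouse 2.

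The 30 sites away from other genes' starts were searched, in the 200 bp around their middles and on both strands, for 12 short patterns, and each count is read beside the share of all 83641 sites with a match in the same width. The PU.1 pattern GAGGAAGT was in none, where 1.48% of all sites held it, and the shorter ETS core GGAAGT within it was in 4 (13.3%, beside 13.9%). Those for RUNX (TGTGGTT, 3.46% of all sites), MAF (TGCTGAC, 3.93%) and CRE (TGACGTCA, 0.906%) were also in none. The IRF pattern GAANNGAAA (4.72% of all sites) and the CEBP pattern TTGNNCAA (3.52%) were in 1 site each, 3.33%. The MEF2 pattern was in 2 (6.67%, beside 2.33%). AP-1 (TGANTCA) was in 3, beside 9.67% of all sites, and the neuronal E-box CAGATGG in 2, beside 9.55%. Most of these shares were higher among sites away from promoters: 12.6% for AP-1, 12.4% for the E-box, 3.11% for MEF2 and 5.51% for IRF. They were 3.92% for CEBP, 4.03% for RUNX, 4.5% for MAF and 1.52% for PU.1. The ETS core (13.1%) and CRE (0.422%) were lower there. SP/KLF (GGGCGG) was in 7 (23.3%, beside 21.0% of all sites, 43.5% of promoter sites and 8.78% of others). In 6 of these footprints covered at least 50% of its bases, and the share of such matches over all sites was not computed. The absence of a match says only that these letters are not in these windows.

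The CTCF core, 12 bases long, was exact in 1 of the 30 sites (3.33%, beside 5.11% of all sites and 6.83% of sites away from promoters). With up to 1 mismatch, a search added after the values were seen, it was in 5 (15.1% of all sites and 18.9% of sites away from promoters held it). The 5 were the Xirp1 intron site, the Gm17705 exon site, the C1qc upstream site and both Spi1 sites printed above. Footprints covered at least 50% of the core in all 5, and the share of such matches over all sites was not computed. The Csf1r site held GGGCGG, inside its footprints, and the pattern TGANTCA and core GGAAGT outside them.

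RefSeq promoters of 300 bp (mm10 build GRCm38), from 250 bp before to 50 bp after a start, were at hand for 6 of the 9 genes, as 8 promoters. The PU.1 pattern was in that of C1qc alone, 195 bp before the start, where 3.2% of 32851 mouse promoters held it. GGAAGT was in those of P2ry12, Sall1 and C1qc, beside 23.8% of promoters. The Trem2 promoter held TTGNNCAA (6.4%) and TGANTCA (7.81%).

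At the start of their GENCODE gene record, 8 of the 9 genes were poor in CpG. The ratio of observed to expected CpG in the 1000 bp around that start had a median of 0.188, beside 0.558 over all coding genes. It was measured at 1 start per gene, while promoter peaks were counted at any start. For Csf1r the start used was chr18:61100598, upstream of the RefSeq start at chr18:61105572. Sall1, at 0.634, was the only one above 0.48, and the others ran from 0.159 in Aif1 to 0.341 in P2ry12. Among the 9714 coding genes under 0.48, a limit set after the values were seen, 27.1% had a promoter peak in mouse 1 and 23.9% in mouse 2, beside 92.9% and 86.2% of the 12041 genes above it. Of the 8 members under the limit, 3 had one in mouse 1 (Aif1, Trem2 and C1qc) and 1 in mouse 2 (Aif1), above that share in mouse 1 and below it in mouse 2.

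Genes whose products act with the 9 were described from lists chosen with earlier results of these data known. Of 7 ligands and partners, 3 had a promoter peak in mouse 1 and 2 in mouse 2. Cx3cl1, the neuronal ligand of CX3CR1, had 4.92 and 2.90, and Csf1, a ligand of CSF1R, had 1.77 and 0.963. Tgfb1, a cytokine microglia depend on, had 1.18 in mouse 1 and no peak in mouse 2. The others, C1qa, C1qb, Il34 and Tyrobp, had none in the shorter lists. In the shorter lists the receptor gene Cx3cr1 had no promoter peak in either mouse, and the gene of its ligand had one in both.

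Of 9 further transcription factors used by microglia 9 had a promoter peak in mouse 1 and 8 in mouse 2. The highest were Smad4 (7.91 and 3.87), Mef2a (7.42 and 3.50) and Cebpa (4.93 and 3.17). All but 2 of these promoters were above the CpG limit of 0.48, and neurons and glia also use several of these factors. Of 18 other microglial genes 6 had a promoter peak in mouse 1 and 7 in mouse 2, among them Tgfbr1 (5.61 and 3.87) and Olfml3 (3.09 and 2.52). Among those with none in either list were Cd53 and Ctss.

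The lists for other cells bracket these counts. Promoter peaks were found for none of 6 genes of border macrophages, none of 6 of monocytes and neutrophils and none of 6 of lymphocytes, in either list of either mouse, and no base of these promoters was listed up to 0.05. Cd163, Ccr2 and Cd3d, which mark these cells, were among them. Excitatory neurons had 8 and 8 of 8 (Camk2a 4.93 and 3.24), inhibitory neurons 4 and 2 of 8, astrocytes 6 and 4 of 8, oligodendrocytes 4 and 5 of 8, and endothelium 2 and 1 of 7.

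**Figure D4:**
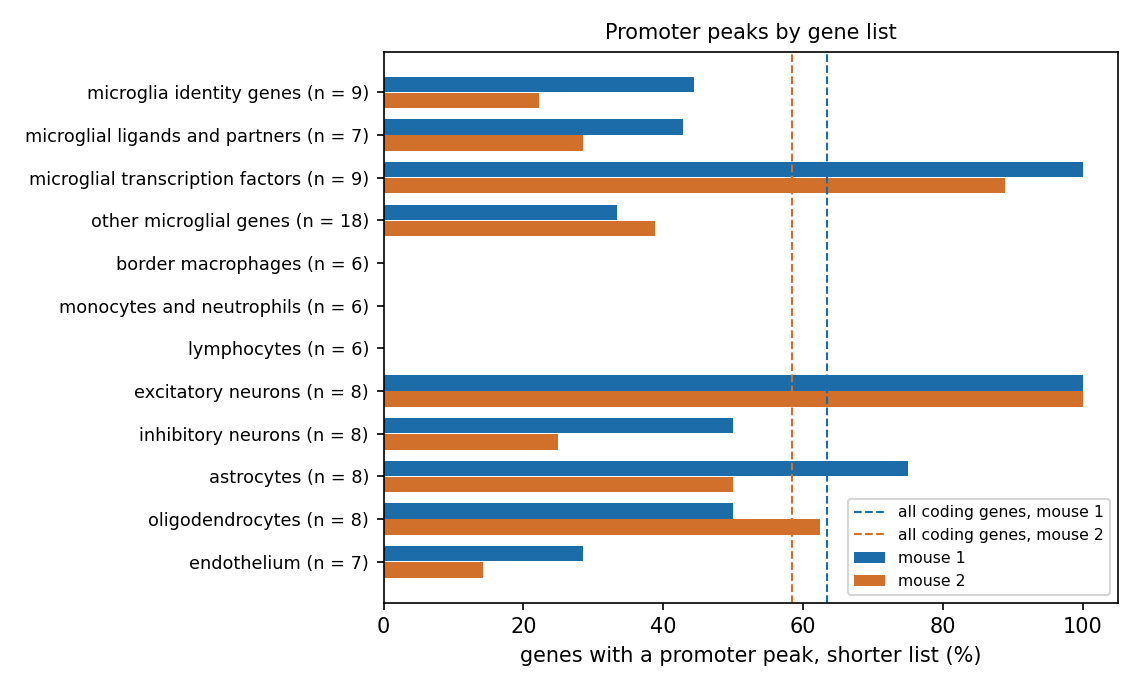
Percent of the genes of each list with a promoter peak in the shorter list of mouse 1 (blue) and mouse 2 (orange), with n genes per list; dashed lines mark all protein-coding genes, 63.5% in mouse 1 and 58.4% in mouse 2. The microglia identity genes, at 44.4% and 22.2%, lie below both lines, and the lists of border macrophages, monocytes and neutrophils, and lymphocytes are at 0.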

How the data were processed

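DNase-seq of 2 libraries was analysed, each from 1 mouse. Per the deposited file list, the authors made peaks, cut-rate false discovery rates and footprints from the filtered alignments of each library on mm10, without pooling the mice. What remains not given in the sources used here is which aligner and peak caller were run, in which version and at which threshold. The deposited peak height is a signal whose normalization is not stated. Heights were whole multiples of 1 step (100% of values, to within 0.02 of a step), and the depths given are read from these steps. The deposited false discovery rate is an adjusted p-value (q-value), listed up to 0.05. The deposited footprint score was constant, and positions alone were used.

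Peaks within 1000 bp of any GENCODE M21 start site counted as promoter peaks. Peaks of both mice overlapping by at least 1 bp were merged into sites. A footprint counted if wholly inside a peak. The genome sequence was GRCm38.p6. Python 3.11.15, NumPy 2.4.6, pandas 2.3.3, SciPy 1.17.1 and matplotlib 3.10.9 were used, and the counting steps were tested on simulated data. All 9 genes are named. Of each other list, up to 3 genes are named by mean promoter height and up to 2 without a peak by the alphabet, and partner genes also where they had a peak in 1 mouse alone. The 2 partner genes beyond these, Il34 and Tyrobp, were named after their values were seen. One gene of the lists is not reported here by name. Sequences were to be shown for promoter peaks in both mice and for the highest site away from other genes' starts. The promoter peaks of Aif1 and Sall1 overlap annotated untranslated exons and are not printed, nor is the Csf1r site, and the other sequences were chosen after the values were seen. Members and lists were chosen with earlier results of these data known. Alternatives were another list, threshold, window, gene body or overlap, and leaving out each mouse.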

Additional observations from a re-analysis of the deposited data

How the results depend on the processing

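No paired analysis was possible because the series has 1 group. Counts below are means over both mice. Members with a promoter peak numbered 3, and 2 to 4 when either mouse was left out. They numbered 6.5 with the longer lists and 1.5 with the higher 50% of peaks. With the start of the gene record alone they numbered 2, as 3 in mouse 1 and 1 in mouse 2. The Aif1 peak, at an internal start, then no longer counted. Peaks in the windows numbered 29, and 26 to 32 when either mouse was left out. They numbered 59 with the longer lists, 17.5 with the higher 50% of peaks and 17.5 with RefSeq gene bodies, an alternative added after seeing the data, which leaves out the long Cx3cr1 transcript. Sites in both mice numbered 19, against 37 with the longer lists and 12 with RefSeq gene bodies. Peaks with a footprint numbered 23.5, against 46.5 with the longer lists. Members with a peak in the window numbered 9, and 6.5 to 9 under every alternative run. A fixed number of peaks in both mice changed none of the 4 counts it was run for. Scaled to the median height of each library, the mean promoter height was 1.20 for Aif1, against 1.22, and 1.44 for Sall1, against 1.50. A narrower promoter window left both means the same. With either mouse left out, the height was 0.929 or 1.51 for Aif1 and 0.826 or 2.17 for Sall1. With 2 mice, leaving out 1 always moves a mean by less than 1 SD, so that comparison cannot show whether these heights are stable. With 2 mice of 1 group no difference can be tested, and weak sites under the lists' thresholds are not seen.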

Other observations

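Widening the windows to 20 kb on each side, to 40 and 33 peaks in mouse 1 and mouse 2, added sites not described above. The highest was upstream of Spi1, at chr2:91070241-91070540 in mouse 1, with 5.85 in mouse 1 and 4.57 in mouse 2. Upstream of Trem2 a further site stood at 2.54 in mouse 1 and 2.36 in mouse 2, its middle 19571 bp before the start in mouse 1. Downstream of Tmem119 the site chr5:113773721-113773920 stood at 2.48 and 1.80, above the one nearer the gene in both mice. Upstream of Cx3cr1 a weaker site stood at 0.843 and 0.523. Which genes these sites belong to was not tested.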
